A study of Homo sapiens with 12 samples.

Results

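The genes described here are the interleukin 1 genes IL1A and IL1B, the interleukin 6 gene IL6, and 5 genes of CXC chemokines that attract neutrophils, CXCL1, CXCL2, CXCL3, CXCL5 and CXCL8. They were taken by name, and all 8 were found by their Ensembl identifiers among the 61541 gene identifiers of the deposited tables. The cells were IMR90, an established line of human lung fibroblasts, wild type by the labels. They had been given doxorubicin, a DNA-damaging drug, for 24 h and were then cultured for at least 8 days, so that every library comes from drug-treated cells and no vehicle-treated cells were analysed here. There were 4 groups of 3 libraries: cells on a 2 kPa hydrogel after 100 nM doxorubicin, cells on stiff plastic after 100 nM, cells on the hydrogel after 250 nM, and cells on plastic after 250 nM. The labels do not say whether the libraries of a group came from separate cultures, so p-values measure the spread between these libraries, which may be technical.

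IL1A and IL1B proteins bind the same receptor, which signals through the adaptor MYD88 and the IRAK kinases to the transcription factor NF-kB. NF-kB then drives the genes of IL6, of the CXC chemokines and of IL1 itself, so that IL1 can raise its own production. The CXC chemokines act on the receptors CXCR1 and CXCR2 of neutrophils, and IL6 acts through the shared receptor subunit IL6ST and the transcription factor STAT3. In senescent fibroblasts these genes are known as a core of the secreted, inflammatory set of proteins.

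The 5 chemokine genes lie within 359 kb on chromosome 4, and IL1A and IL1B within 63 kb on chromosome 2 (GRCh38, GENCODE 29). The sequences below are shown because all 5 chemokine promoters carry the same NF-kB type motif at nearly the same distance from the start. Each is 30 bases on the strand of its gene, from the RefSeq promoter windows (GRCh38.p14), with the match to the NF-kB consensus in capitals (for CXCL1, CXCL2, CXCL3 and CXCL5, 2 overlapping matches, 1 on each strand), or for CXCL8 the match to the shorter GGAATTTCC. IL6 is shown for comparison. They lie at chr4:73869304-73869333 (plus strand) for CXCL1, chr4:74099254-74099283 (minus strand) for CXCL2, chr4:74038749-74038778 (minus strand) for CXCL3, chr4:73998749-73998778 (minus strand) for CXCL5, chr4:73740467-73740496 (plus strand) for CXCL8 and chr7:22727117-22727146 (plus strand) for IL6.
CXCL1: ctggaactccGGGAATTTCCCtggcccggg
CXCL2: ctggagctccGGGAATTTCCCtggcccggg
CXCL3: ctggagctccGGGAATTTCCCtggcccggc
CXCL5: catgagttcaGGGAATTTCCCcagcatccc
CXCL8: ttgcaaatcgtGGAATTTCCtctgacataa
IL6: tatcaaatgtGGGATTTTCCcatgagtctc

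Each window ran from 250 bases before the start to 50 after it, and both strands were searched. GGAATTTCC was present in the windows of 5 of 5 chemokine genes, 77 to 91 bases before the start, and in 162 of all 35116 windows (0.461%). This motif was added after the other motifs had been searched in these windows, so its count in the chemokine genes supports nothing. CXCL1, CXCL2 and CXCL3 are also nearly alike in the bases around the motif, as shown above, so their matches are not independent. The longer NF-kB consensus of 10 letters, which overlaps GGAATTTCC, was in 5 of the 8 genes' windows (CXCL1, CXCL2, CXCL3, CXCL5 and IL6) and in 11.3% of all windows. The AP-1 motif TGANTCA was in the windows of IL1A and CXCL8, against 7.71% of all windows. The C/EBP motif TTGCNNAA was in those of IL1B, IL6 and CXCL2, against 10.5%, and TATAAA in those of IL1A and CXCL8, against 11.5%. IL1A has 2 windows in the table, which overlap. The windows of IL1A and IL1B held no match to either NF-kB motif, which says only that these letters are not in these bases.

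**Figure D1:**
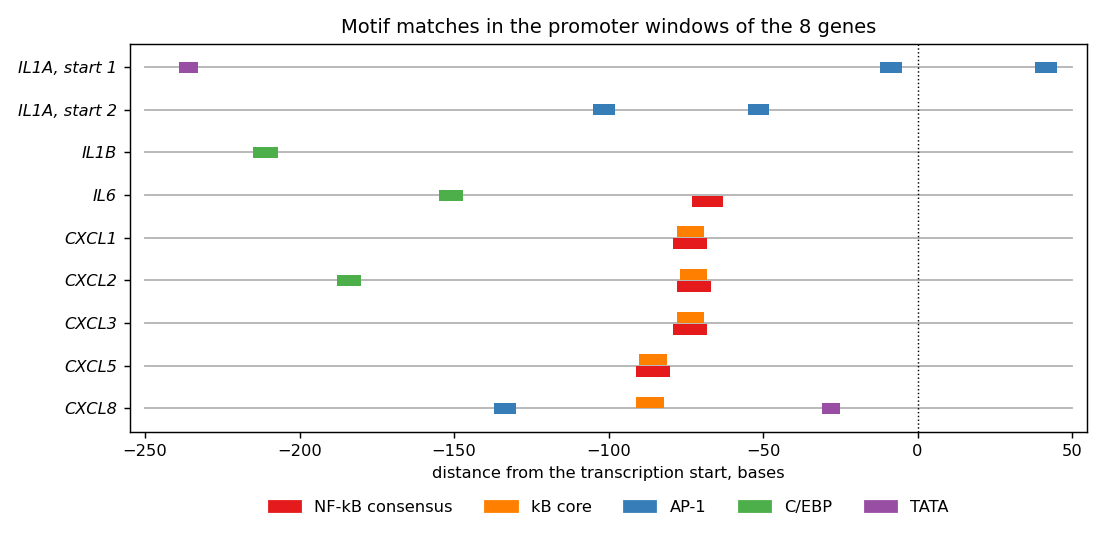
Matches to 5 motifs (colours) in the promoter windows of the 8 genes, 1 line per window, with the x axis giving the distance in bases from the transcription start (dotted line). The 5 chemokine lines carry GGAATTTCC (kB core) between 77 and 91 bases before the start, and the lines of IL1A and IL1B carry no NF-kB match.

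Libraries at 100 nM held 5887056 to 7351916 expected counts and libraries at 250 nM 2229069 to 2730309, so 1 count was worth more at the higher dose. The doses also differ as whole sets of libraries, and dose and library set cannot be told apart. Gel replicate 1 at 250 nM stood apart from its group: 8.11% of its protein-coding counts were mitochondrial, against 4.24% to 5.12% in the other 5 libraries of that dose, and its mean correlation with its own group was 0.845. It had the fewest genes detected of all libraries, 14370, against 16037 to 17259 in those 5. Ribosomal protein genes took up 10.8% of its protein-coding counts, against 7.63% to 8.77%. That gel library and plastic replicate 1 at 100 nM held 13.2% and 14.4% of their counts in the ribosomal DNA region of chromosome 21, against 24.2% to 30.7% in the other 10. Gel replicate 1 at 100 nM had the highest such share, 30.7%, and the most genes detected, 20378, but its correlation with its group, 0.941, lay within the range of its dose. All 10 fibroblast markers passed the filter on low counts, and 0 of 14 leukocyte markers did.

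IL1B encodes the secreted form of interleukin 1 that needs caspase cleavage. At 100 nM it had 689, 24 and 50 expected counts in gel replicates 1, 2 and 3, against 6, 4 and 13 in the plastic ones. All 3 gel libraries lay above all 3 plastic libraries, and so did gel replicates 2 and 3 alone. In CPM, the count relative to the library's total after TMM scaling, these were 125, 3.30 and 7.13 on gel against 0.801, 0.619 and 2.06 on plastic. At 250 nM it had 58, 13 and 9 counts on gel against 10, 4 and 3 on plastic. There the groups overlapped, because gel replicate 3, at 3.79 CPM, lay below plastic replicate 1, at 4.14 CPM.

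IL1A encodes the form of interleukin 1 that is active without cleavage and can stay bound to the cell. It had 139, 0 and 9 counts on gel at 100 nM, against 0, 1 and 6 on plastic. At 250 nM it had 31, 2 and 4 on gel against 3, 0 and 2 on plastic. Outside the replicate 1 libraries of the gel groups, IL1A had at most 9 counts in any library, so that single reads set its order there.

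IL6 encodes the cytokine of the acute-phase response. At 100 nM it had 68, 13 and 11 counts on gel against 14, 10 and 14 on plastic. The plastic libraries were alike, at 1.88 ± 0.334 CPM (SD, n = 3), and gel replicates 2 and 3, at 1.79 and 1.57 CPM, lay among them. At 250 nM IL6 had 0 counts in all 3 gel libraries, against 1, 0 and 2 on plastic. It was the only one of the 8 genes without a count in gel replicate 1 at 250 nM. A count of 0 over the 3 gel libraries allows a level of up to 0.402 CPM (3 counts over the group, counting error only). That level was 13-fold under the mean of the gel group at 100 nM, 5.23 ± 6.15 CPM (SD, n = 3). Gel replicate 1 held 78.6% of the summed CPM of that group. Against the mean of gel replicates 2 and 3 at 100 nM alone, 1.68 CPM, it was 4.17-fold lower. These ratios leave out the spread between the libraries at 100 nM, so they are not lower bounds of a difference. On plastic IL6 averaged 0.4 ± 0.393 CPM at 250 nM and 1.88 ± 0.334 CPM at 100 nM (SD, n = 3 each).

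CXCL8 encodes interleukin 8, the main neutrophil attractant of human cells. It had 1174, 48 and 119 counts on gel at 100 nM against 72, 8 and 82 on plastic, and 290, 11 and 12 on gel at 250 nM against 28, 2 and 6 on plastic. Gel replicate 1 was far above the rest at each dose, with 213 and 95.8 CPM at 100 and 250 nM, and the remaining gel libraries lay within the plastic range, except gel replicate 3 at 100 nM, at 17.0 CPM, against at most 13.0 CPM on plastic.

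CXCL1, CXCL2 and CXCL3 are close relatives that act mainly on CXCR2. CXCL1 had 622.54, 8 and 13.26 expected counts on gel at 100 nM against 8, 1 and 9 on plastic, and 110, 1 and 0 on gel at 250 nM against 4, 1 and 2 on plastic. At 250 nM its level in gel replicates 2 and 3 averaged 0.243 CPM, under the mean of 0.970 CPM on plastic, so its whole excess on gel was in replicate 1. CXCL2 had 92.35, 43 and 34.74 expected counts on gel at 100 nM against 2, 3 and 36 on plastic. Here plastic replicate 3, at 5.70 CPM, lay among the gel libraries and far from the other plastic ones, at 0.267 and 0.465 CPM. CXCL2 had 28, 4 and 1 counts on gel at 250 nM against 5, 0 and 2 on plastic.

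CXCL3 had 167.11, 30 and 34 expected counts on gel at 100 nM against 24, 1 and 24 on plastic. All gel libraries lay above all plastic ones, though gel replicate 2, at 4.12 CPM, and plastic replicate 3, at 3.80 CPM, were close. CXCL3 had 162, 9 and 12 counts on gel at 250 nM against 32, 6 and 2 on plastic. It was the only one of the 8 genes whose highest level over all 12 libraries was in gel replicate 1 at 250 nM, 53.5 CPM, against 30.3 CPM in gel replicate 1 at 100 nM.

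RSEM, the counting tool the labels name, divides a read that fits several transcripts between them, which can give fractional values. Of the 50-base words in the transcripts of CXCL2, 12.5% also occur in another of the 8 genes, most often CXCL3. That share was 6.01% for CXCL3 and 4.81% for CXCL1, and 0 for the other 5 genes. A value was fractional in 2, 2 and 1 of the 12 libraries for CXCL1, CXCL2 and CXCL3.

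CXCL5 encodes a chemokine often made by epithelial and stromal cells under IL1. It had 979, 7 and 10 counts on gel at 100 nM against 16, 6 and 18 on plastic. Without replicate 1 the mean on gel lay below that on plastic, though the libraries overlapped, with 0.962 and 1.43 CPM in gel replicates 2 and 3 against 2.14, 0.929 and 2.85 CPM on plastic. At 250 nM it had 36, 2 and 9 counts on gel against 9, 1 and 3 on plastic.

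**Figure D2:**
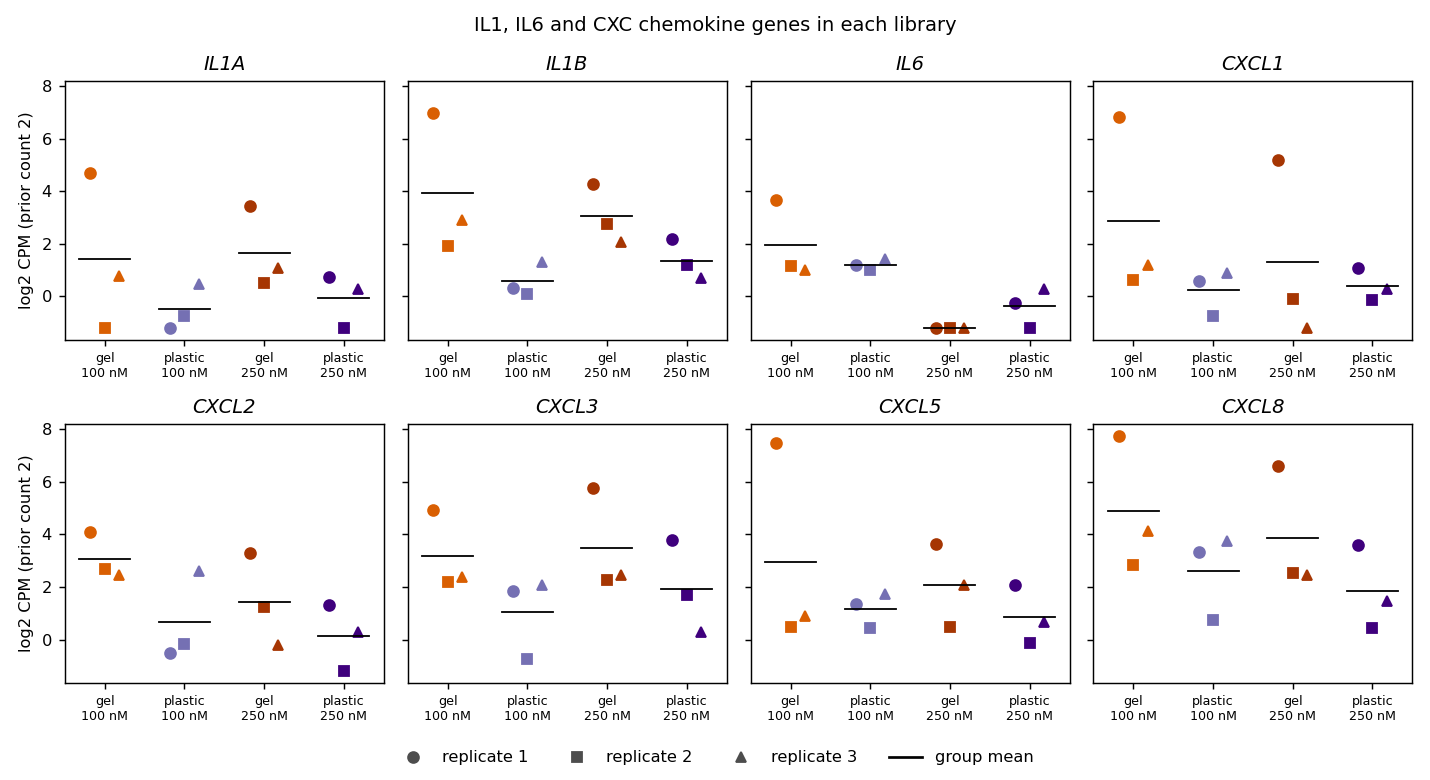
Log2 CPM (prior count 2) of the 8 genes, 1 panel each, in the 4 groups, gel left of plastic at each dose; points are libraries, shapes are replicate numbers and bars are group means of 3 libraries. The circle of gel replicate 1 is highest at 100 nM in 8 of 8 panels and at 250 nM in 7 of 8, IL6 being the exception.

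Between genes, levels can be compared per length, in TPM, which scale each count by transcript length. By the median of 3 libraries, CXCL8 was highest on gel at 100 nM, at 15.79 TPM (5.28 to 167.4), followed by IL1B at 6.92 TPM, CXCL2 at 5.71 TPM and CXCL3 at 4.00 TPM. CXCL5 was lowest there at 0.600 TPM, yet reached 69.99 TPM in replicate 1. On plastic at 100 nM the order began with CXCL8 at 7.54 TPM, CXCL3 at 3.10 TPM and IL6 at 2.60 TPM, and ended with IL1A at 0.0800 TPM. On gel at 250 nM IL1B led with 5.02 TPM, then CXCL8 with 3.86 TPM and CXCL3 with 3.22 TPM, while IL6 was at 0. On plastic at 250 nM CXCL3, at 1.82 TPM, stood above CXCL8, at 1.35 TPM, and IL1B, at 1.18 TPM. Every pair of neighbours in these orders overlapped in range, except IL6 and CXCL1 on plastic at 100 nM.

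Replicate 1 therefore carried most of the gel signal. It held 60.5% (CXCL2) to 98.7% (CXCL5) of the summed CPM of the gel group at 100 nM, and 65.5% (IL1B) to 98.7% (CXCL1) at 250 nM for the 7 genes with counts. Its ratio to the next highest library of the dose at 100 nM was 62.3 for CXCL5, 61.0 for CXCL1, 19.7 for IL1A, 17.5 for IL1B, 12.6 for CXCL8, 6.25 for CXCL3, 5.57 for IL6 and 2.82 for CXCL2. At 250 nM it was 22.0 for CXCL1, 8.27 for CXCL8, 6.08 for IL1A, 4.47 for CXCL2, 4.04 for CXCL3, 3.14 for CXCL5 and 3.04 for IL1B. The order of the genes thus differed, with CXCL5 first at 100 nM and among the last at 250 nM.

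Over all 12329 genes that passed the filter on low counts, gel replicate 1 was the highest library in 22.4% at 100 nM and in 29.5% at 250 nM. It was at least 4 times the next library in 25 genes (0.203%) at 100 nM and in 58 genes (0.470%) at 250 nM. Of the 5 of these genes that passed the filter, 4 were past that ratio at 100 nM and 3 at 250 nM. Counting those that did not pass, 7 and 5 of the 8 were, but the shares over all genes do not cover such genes. The genes were chosen with earlier results of these data known, so these counts support nothing. The same 8 genes took up 0.117% of the protein-coding counts of gel replicate 1 at 100 nM (3931 counts), against 0.00369% and 0.00625% in gel replicates 2 and 3 and 0.000795% to 0.00512% on plastic. At 250 nM they took up 0.0333% in gel replicate 1, against 0.00283% and 0.00280% in gel replicates 2 and 3 and 0.000903% to 0.00589% on plastic. The labels give no reason for the difference between the replicate 1 libraries and the others.

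Of the genes that passed the filter, those at least 4 times the next library in gel replicate 1 at both doses were CXCL8, CXCL3 and ZC3H12A, which encodes Regnase-1, an RNase that cuts cytokine mRNA. They were 12% of the 25 genes at 100 nM and 5.17% of the 58 at 250 nM. CXCL1 and IL1A, which did not pass the filter, were also past that ratio at both doses. ZC3H12A had 25.8, 3.57 and 3.71 CPM on gel at 100 nM against 3.34, 2.94 and 4.27 CPM on plastic, and 39.7, 6.31 and 1.69 CPM on gel at 250 nM against 8.69, 1.41 and 1.96 CPM on plastic. At a ratio of 2 the shared genes numbered 32, which were 19.2% of 167 genes and 5.15% of 621. They included all 5 of the 8 genes that passed the filter. Others, picked after their values were seen, were IRAK3, an inhibitor of IL1 receptor signalling (ratios of 7.88 at 100 nM and 2.52 at 250 nM), MMP3, the matrix-degrading protease stromelysin (7.03 and 2.40), and TNFAIP3, which encodes the NF-kB inhibitor A20 (4.64 and 2.24).

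The comparison of gel with plastic asks whether a soft substrate goes with another inflammatory output after the drug. In the fit across all genes (edgeR quasi-likelihood test, Benjamini-Hochberg adjustment, called under 0.05), 5 of the 8 genes passed the filter, IL1B, CXCL2, CXCL3, CXCL5 and CXCL8. IL1A, IL6 and CXCL1 did not. Genes that enter mostly through the group where they are high tend to show that direction, so the 5 are described one by one and their count supports nothing.

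At 100 nM, 0 of the 5 were called between gel and plastic, where 0.219% of all tested genes were (27 of 12329). At an unadjusted p under 0.05 there were 3 of the 5, IL1B, CXCL5 and CXCL8, against 9.86% of all genes, a count that likewise supports nothing. The log2 change was 5.26 ± 1.32 (SE) for IL1B, with an adjusted p of 0.191. It was 4.90 ± 1.65 for CXCL5 (adjusted p = 0.358), 3.30 ± 1.43 for CXCL8 (0.489), 2.42 ± 1.21 for CXCL3 (0.544) and 2.10 ± 1.04 for CXCL2 (0.534). The changes were large, and so were their errors: the median SE of the 5 was 1.32, against 0.33 over all genes. Groups did not overlap, with gel higher, for IL1B and CXCL3 of the 8 genes, against 9.62% of all tested genes.

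At 250 nM, 0 of the 5 were called, against 0.00811% of all genes (1 of 12329), and 0 of the 5 reached an unadjusted p under 0.05. The log2 change of gel over plastic was 2.84 ± 1.61 for CXCL8 (edgeR adjusted p = 0.600), 2.06 ± 1.43 for IL1B (0.676), 2.02 ± 1.4 for CXCL2 (0.661), 1.93 ± 1.24 for CXCL3 (0.647) and 1.68 ± 2.09 for CXCL5 (0.835). All 8 genes overlapped between the groups, where 7.45% of all tested genes did not overlap with gel higher. For CXCL5 the error exceeded the change.

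Averaged over both doses, 0 of the 5 were called, against 0.795% of all genes (98), while 5 of the 5 had an unadjusted p under 0.05, against 12.4% of all genes. As said of the filter above, that count supports nothing. Without replicate 1 of both gel groups the unadjusted edgeR p was 0.00357 for IL1B, and 0.433 to 0.81 for CXCL2, CXCL3, CXCL5 and CXCL8. In that fit 0 of the 5 were called, while 358 of 12664 genes were. IL1B had a log2 change of 1.61 there (edgeR adjusted p = 0.0796). With all 12 libraries IL1B had the smallest adjusted p of the 5 in edgeR, 0.112, at a log2 change of 3.66 ± 0.96. Its level was higher in 3 of 3 gel libraries than in any plastic library at 100 nM. CXCL8 had 3.07 ± 1.07 (0.244), CXCL5 3.29 ± 1.29 (0.305), CXCL3 2.17 ± 0.87 (0.310) and CXCL2 2.06 ± 0.85 (0.327). DESeq2, run on the same counts, gave no p for CXCL5 in any comparison and no adjusted p for CXCL2 at 250 nM. Of the genes with an adjusted p it called IL1B, at 100 nM (log2 change 5.30, adjusted p = 0.00474) and over both doses (3.68, adjusted p = 0.00361). The edgeR call of IL1B over both doses also appeared when gel replicate 2 at 100 nM was left out (3.93, adjusted p = 0.0305). Without a filter and without a robust estimate of the spread, edgeR called 7 of the 8 genes at 100 nM and 4 at 250 nM, among 335 and 231 of 28787 genes. Over the alternatives the adjusted p of IL1B at 100 nM ran up to 0.505.

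Without replicate 1 of both gel groups, the log2 change of IL1B at 100 nM was 2.16 (adjusted p = 0.125 in edgeR), that of CXCL2 1.4 (0.602), that of CXCL3 0.90 (0.757), that of CXCL8 0.57 (0.858) and that of CXCL5 -0.71 (0.763). At 250 nM it was 1.06 for IL1B (0.729), 0.42 for CXCL5 (0.952), 0.22 for CXCL2 (0.989), 0.05 for CXCL8 (1.00) and -0.25 for CXCL3 (0.979). Without these 2 libraries IL1B had the largest difference of the 5 at each dose, and those of CXCL5 at 100 nM and CXCL3 at 250 nM turned round. Each of the 5 changes was smaller without them than with all 12 libraries at both doses. This had to be so, because the libraries left out were the highest of their dose for each of the 5 genes.

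**Figure D3:**
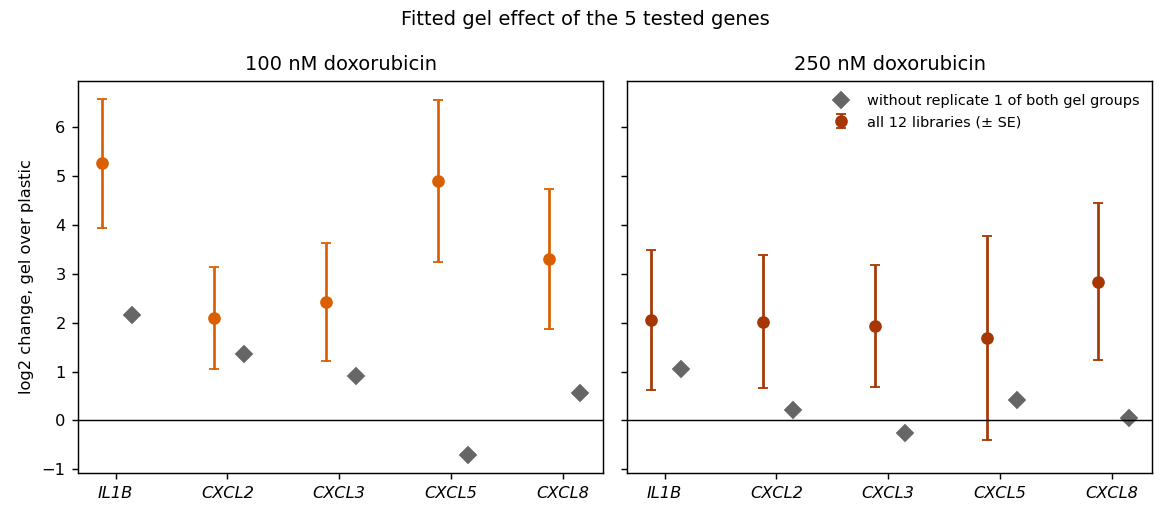
Fitted log2 change of gel over plastic for the 5 tested genes at 100 nM (left panel) and 250 nM (right panel), with all 12 libraries (circles, bars ± SE) and without replicate 1 of both gel groups (diamonds). At 100 nM IL1B moves to 2.16 and CXCL5 to -0.71 without these libraries; at 250 nM the diamonds lie between -0.25 and 1.06.

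The 3 genes that did not pass the filter were compared by exact two-sided permutation of the libraries within each dose (400 arrangements, smallest possible p = 0.005). The difference of gel minus plastic in mean log2 CPM was 1.81 for IL1A (p = 0.08, exact), 1.76 for CXCL1 (p = 0.32, exact) and -0.03 for IL6 (p = 0.94, exact). Within 1 dose the smallest p that 3 libraries against 3 allow is 0.1.

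A difference of the gel effect between the doses was not called in any of the 5 (0 called, against 0% of all genes, and 0 with an unadjusted p under 0.05, against 6.25%; DESeq2 called 0 of the 4 for which it gave a p). The difference, 250 minus 100 nM, was largest for CXCL5, at -3.22 ± 2.83 on the log2 scale (edgeR adjusted p = 0.822), and for IL1B, at -3.20 ± 2.03 (0.760). It ran from -0.49 to -0.08 for CXCL3, CXCL8 and CXCL2, with errors of 1.70 to 2.23.

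For 250 against 100 nM on gel, 0 of the 5 were called, where 13.8% of all genes were (1703). The log2 change was -3.33 ± 1.57 for CXCL5 (edgeR adjusted p = 0.172) and -2.15 ± 1.12 for IL1B (0.212), and without gel replicate 1 at 100 nM it was 2.26 for CXCL5 and 0.95 for IL1B. On plastic 0 of the 5 were called, against 8.61% of all genes (1061), with log2 changes from -1.09 ± 1.4 for CXCL2 to 1.22 ± 1.33 for CXCL3. In neither dose comparison did any of the 5 reach an unadjusted p under 0.05, against 31.4% of all genes on gel and 25.8% on plastic, and DESeq2 called 0 of the 4 for which it gave a p in both. IL6 did not pass the filter here. The alternative fits that it entered all held gel replicate 1 at 100 nM, where it was highest, so its calls in them support nothing.

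Correlations between the 8 genes were taken within each dose. Within 100 nM, Pearson's r of log2 CPM over the 6 libraries ran from 0.61 to 0.99 over the 28 pairs of genes, with a median of 0.90. Within 250 nM it ran from 0.72 to 0.96 over the 21 pairs without IL6, with a median of 0.85. Over all 49 pairs, 0 passed an exact permutation test after Benjamini-Hochberg adjustment, by Pearson's r or by Spearman's rho. The smallest exact p that 6 libraries allow is 0.00139 for r and 0.00278 for rho, the p of IL1B and CXCL3 at 100 nM, with a rho of 1. A single pair could therefore not pass the adjustment, however close its correlation. Spearman's rho had a median of 0.69 at 100 nM and 0.71 at 250 nM.

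The pair with the smallest p was CXCL1 and CXCL8 at 100 nM, with r = 0.96 (exact permutation p = 0.00278, adjusted p = 0.051) and rho = 0.94 (exact p = 0.0167, adjusted 0.117). Without the 2 libraries farthest from the median of CXCL1, r was 0.90 over the other 4 (exact p = 0.167). Without gel replicate 1 alone it was 0.99. For CXCL2 and CXCL8 at 250 nM, r was 0.94 (exact permutation p = 0.00694, adjusted p = 0.0567) and rho 0.94, and r was 0.59 without the 2 farthest libraries.

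Without gel replicate 1 the median r over the pairs was 0.55 at 100 nM (-0.11 to 0.99, positive in 26 of 28) and 0.52 at 250 nM (-0.10 to 0.84, positive in 18 of 21). Much of the pooled r thus rested on that library, and many pairs had a positive r without it. Over all 12 libraries, as a description, the median r of the 28 pairs was 0.79 as measured (0.03 to 0.92) and 0.79 after removing group means, and 0.45 without both gel replicate 1 libraries (-0.37 to 0.73). The lowest values over 12 libraries were all of IL6, 0.03 with CXCL3, 0.25 with IL1A and 0.32 with IL1B, while the 21 pairs without IL6 ran from 0.65 to 0.92. IL6 had at most 2 counts in any library at 250 nM, so its values over 12 libraries mix the dose sets and counts near 0. Within 100 nM the r of IL6 was 0.80 with CXCL3, 0.92 with IL1A and 0.89 with IL1B. Without gel replicate 1 these were 0.45, 0.10 and -0.11. Over 12 libraries the r with CXCL8 was 0.44 for IL6, against 0.92 for CXCL1, 0.88 for CXCL5, 0.87 for CXCL3, 0.86 for IL1B and IL1A and 0.84 for CXCL2.

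Some of the other libraries held a narrow range of ranks across the genes, and others did not. Plastic replicate 2 at 100 nM was the lowest of its dose in 6 of the 8 genes. Plastic replicate 1 at 250 nM ranked 2 or 3 in 7 of 7 genes, IL6 being left out at that dose, and plastic replicate 2 ranked 5 or 6, last in 4 of 7. Plastic replicate 3 ranked 2 to 4 at 100 nM. Gel replicates 2 and 3 ranked anywhere from 2 to 5 at 100 nM, and at 250 nM from 2 to 5 and from 2 to 6. Plastic replicate 1 at 100 nM and plastic replicate 3 at 250 nM ranked 3 to 6. The mean log2 CPM of the 8 genes was 1.33 and 1.97 in gel replicates 2 and 3 at 100 nM, against 0.87, -0.02 and 1.78 in plastic replicates 1, 2 and 3, so these gel libraries were close to plastic replicate 3. Values of the 8 genes in 1 library share that library and are not independent of one another.

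**Figure D4:**
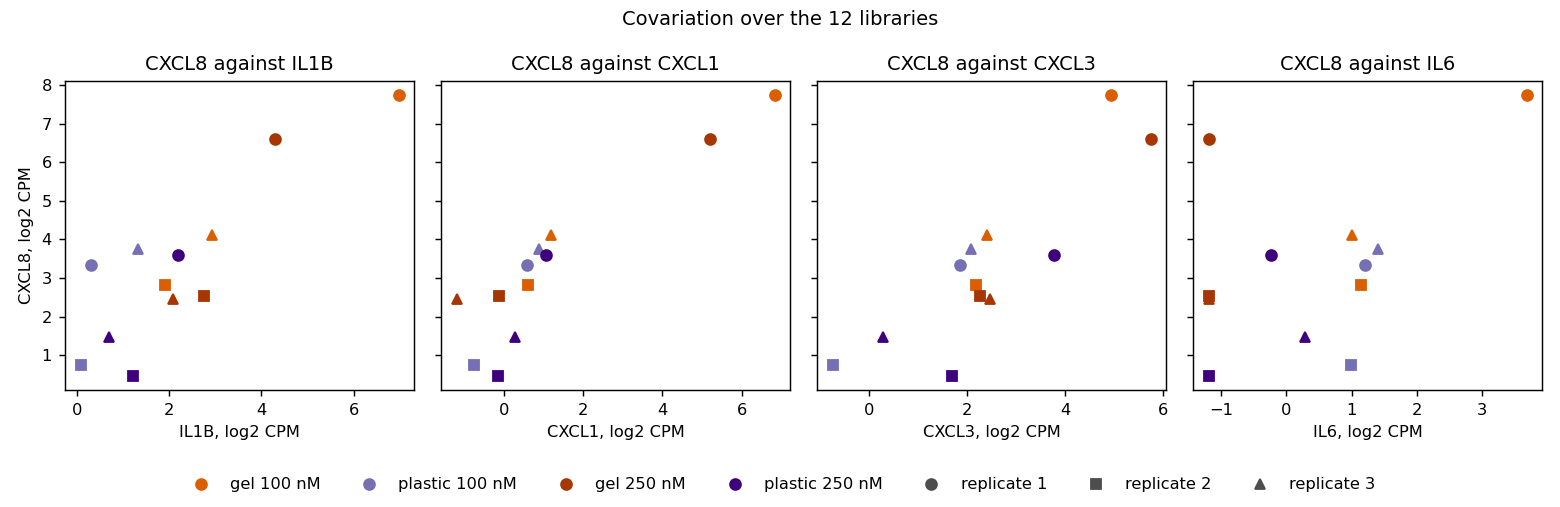
Log2 CPM (prior count 2) of CXCL8 against IL1B, CXCL1, CXCL3 and IL6 over the 12 libraries, with colours for groups and shapes for replicate numbers. Both gel replicate 1 libraries lie at the top of all panels, and in the IL6 panel the one at 250 nM lies at the left edge, with 0 counts of IL6.

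The 10 other protein-coding genes most like these were ranked by r over the 12 libraries with the mean log2 CPM of the 5 genes that passed the filter. They included NAMPT (r = 0.947), BMP2 (0.938), TNFAIP3 (0.935), AKAP8L (0.933), SLC11A2 (0.902), PANK4 (0.902), POU2F2 (0.896), DNPEP (0.895) and ANKRD36 (0.888). Over all genes the median r was -0.048, and these r share the library as their unit, so they carry no p. NAMPT encodes an enzyme of NAD synthesis that is also secreted. It had 1180, 246 and 302 CPM on gel at 100 nM against 108, 86.4 and 254 CPM on plastic, and 366, 228 and 189 CPM on gel at 250 nM against 345, 85.0 and 90.7 CPM on plastic. At 100 nM its plastic replicate 3 lay between gel replicates 2 and 3.

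BMP2 encodes a growth factor of the TGF-beta family. It had 124, 8.66 and 16.5 CPM on gel at 100 nM against 9.34, 3.10 and 24.2 CPM on plastic, and 50.2, 8.25 and 11 CPM on gel at 250 nM against 35.2, 8.92 and 6.68 CPM on plastic. Without gel replicate 1 at 100 nM, the r of these 9 genes ran from 0.764 for ANKRD36 to 0.964 for AKAP8L. The genes had been picked by r over libraries that include those left in, so this range supports nothing.

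**Figure D5:**
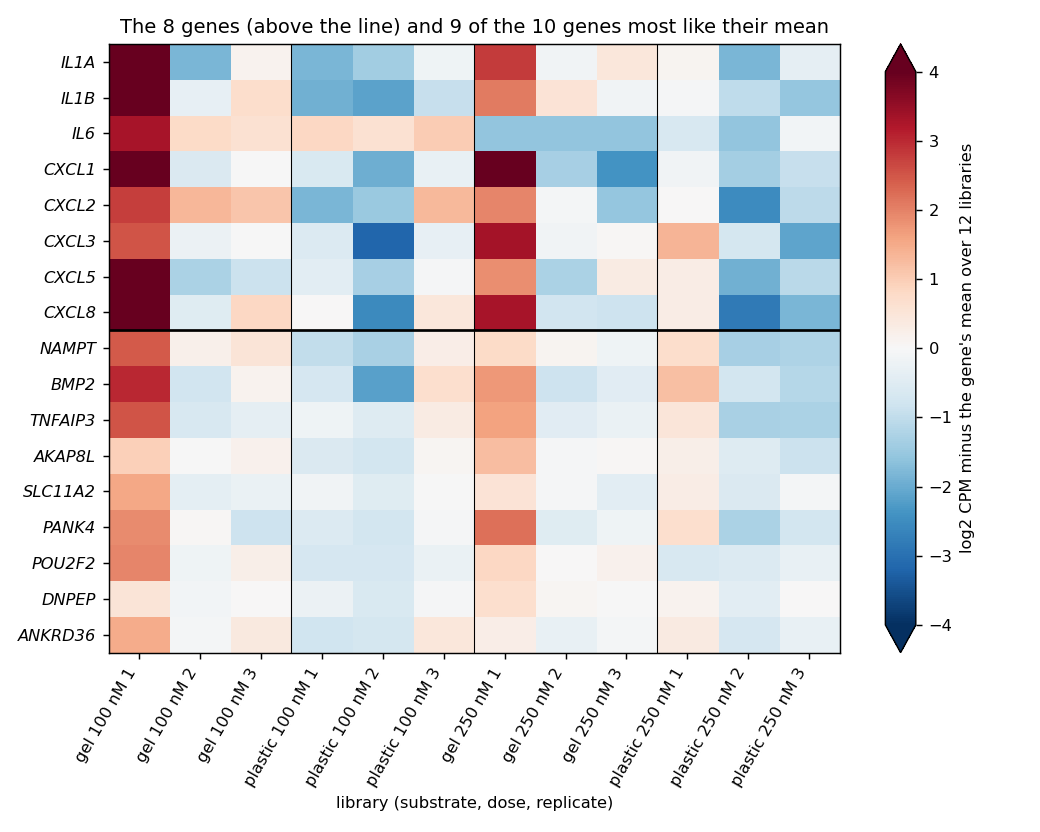
Log2 CPM minus the gene's own mean over the 12 libraries (colour scale, ending at -4 and 4) for the 8 genes (above the line, prior count 2) and 9 of the 10 genes most like them (below, pseudocount 0.25 CPM), with gel left of plastic at each dose. The first column, gel replicate 1 at 100 nM, is red in all lines, and the IL6 line is blue in the 3 gel libraries at 250 nM.

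Other genes of the pathway were read from 7 lists of 88 genes, of which 68 were tested. At 100 nM 1 was called higher and 1 lower on gel, at 250 nM 0, and over both doses 2 higher and 0 lower. That is 2.94%, 0% and 2.94% of the 68, against 0.219%, 0.00811% and 0.795% of all tested genes. The lists were chosen with earlier results of these data known, so these counts support nothing. All of the called genes belong to the 17 other genes induced by IL1 through NF-kB, of which 13 were tested. MMP1, interstitial collagenase, rose on gel at 100 nM, with a log2 change of 2.66 ± 0.30 (edgeR adjusted p = 0.00251), and had 554, 264 and 335 CPM on gel against 75.5, 64.0 and 42.9 CPM on plastic. All 3 gel libraries lay above all 3 plastic ones. MMP1 and MMP3 rose over both doses, by 2.03 ± 0.20 (adjusted p = 0.000626) and 4.25 ± 0.73 (adjusted p = 0.0207).

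MMP3 had 154, 11.3 and 22.0 CPM on gel at 100 nM against 2.27, 0.465 and 0.475 CPM on plastic, so its gel replicate 1 was again highest while the other gel libraries also exceeded plastic. CCL2, a monocyte attractant, fell on gel at 100 nM by 2.29 on the log2 scale (SE 0.40, edgeR adjusted p = 0.0342). It had 3.08, 2.61 and 2.42 CPM on gel against 17.5, 15.8 and 6.65 CPM on plastic, and gel replicate 1 was not raised. PTGS2, which encodes the prostaglandin enzyme COX-2, was picked after its values were seen. It had 122, 10.0 and 15.4 CPM on gel at 100 nM against 9.74, 7.28 and 7.28 CPM on plastic, a change that was not called (edgeR adjusted p = 0.288). Directions in that list were mixed. Of its 13 tested genes, 8 had a positive log2 change on gel at 100 nM (median 0.28) and 6 over both doses (median -0.08).

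SOD2, the mitochondrial superoxide dismutase, had the highest mean of that list and was likewise high in gel replicate 1, with 759, 120 and 123 CPM on gel at 100 nM against 207, 188 and 205 CPM on plastic (adjusted p = 0.768). NFKBIA, which encodes the NF-kB inhibitor IkB-alpha, had 210, 64.6 and 59.3 CPM on gel at 100 nM against 56.3, 63.5 and 111 CPM on plastic (adjusted p = 0.819). In both, gel replicate 1 was high and gel replicates 2 and 3 were within or below the plastic range.

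Of 11 receptors and antagonists 5 were tested, and 0 were called between gel and plastic. IL1R1, the signalling receptor of IL1, averaged 17.0 CPM over the 12 libraries, with 27.9, 19.5 and 16.3 CPM on gel at 100 nM against 21.8, 17.5 and 13.6 CPM on plastic. IL1RAP, its accessory chain, averaged 5.88 CPM. CXCR1 and CXCR2, the receptors of the chemokines, averaged 0 and 0.0151 CPM, and the receptor antagonist IL1RN averaged 0.0119 CPM. IL6ST fell at 250 against 100 nM on gel by 1.20 (SE 0.30, adjusted p = 0.0187) and on plastic by 1.06 (SE 0.29, adjusted p = 0.0399) on the log2 scale.

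Of 20 signal transducers of IL1 and IL6 all were tested, and 0 were called between gel and plastic. Between doses STAT3 rose on gel by 1.11 ± 0.21 (edgeR adjusted p = 0.00738) and on plastic by 1.39 ± 0.22 (adjusted p = 0.00453) on the log2 scale. IRAK1 rose on plastic by 0.89 ± 0.22 (adjusted p = 0.0259), TAB2 fell by 1.00 there (SE 0.22, adjusted p = 0.0145), and CHUK, the IKK-alpha kinase, fell on gel by 1.64 (SE 0.46, adjusted p = 0.0324). JAK1 and PTPN11, the most abundant uncalled genes of the list, averaged 143 and 204 CPM. IRAK3 had 20, 0.962 and 0.285 CPM on gel at 100 nM against 1.20, 1.39 and 2.53 CPM on plastic, the same replicate 1 pattern without a call (adjusted p = 0.617).

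Of 12 transcription factors of these promoters all were tested, and 0 were called between gel and plastic. RELA, the NF-kB subunit p65, rose at 250 against 100 nM on gel by 1.20 ± 0.24 (edgeR adjusted p = 0.00859) and on plastic by 0.89 ± 0.24 (adjusted p = 0.0372). It had 43.9, 50.9 and 51.9 CPM on gel at 100 nM against 63.1, 34.7 and 42.9 CPM on plastic, with gel replicate 1 the lowest of its group. CEBPD, a C/EBP factor, fell on gel by 1.31 between doses (SE 0.33, adjusted p = 0.0218). JUN, a subunit of AP-1, averaged 264 CPM and was highest in plastic replicate 1 at 100 nM, at 597 CPM. NFKBIZ, an NF-kB cofactor that IL1 induces, had 317, 99.5 and 111 CPM on gel at 100 nM against 42.2, 25.4 and 141 CPM on plastic (adjusted p = 0.534).

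Of 7 genes of IL1 processing and the inflammasome 6 were tested and 0 were called in any of the 6 comparisons. CAPN2 and CAPN1, which encode calpains, averaged 385 and 79.1 CPM, and CASP1, which encodes the protease that cuts IL1B, averaged 4.61 CPM. Of 7 regulators of cytokine mRNA decay all were tested and 0 were called between gel and plastic, ZFP36L1 and ZFP36L2 averaging 246 and 47.1 CPM. KHSRP fell by 0.82 on gel between doses (SE 0.22, adjusted p = 0.0256), and HNRNPD by 0.94 on gel (SE 0.22, adjusted p = 0.016) and by 0.87 on plastic (SE 0.22, adjusted p = 0.028). Of 14 other CXC chemokines and IL6 family cytokines 5 were tested and 0 were called. IL11 and CXCL12 averaged 21.6 and 13.3 CPM. CXCL12, an attractant of lymphocytes, had 3.27, 22.8 and 12.7 CPM on gel at 100 nM against 15.9, 34.4 and 6.33 CPM on plastic, with gel replicate 1 the lowest.

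The other called genes of the lists were NFKBIE, an NF-kB inhibitor, which rose on gel between doses by 1.25 ± 0.34 (edgeR adjusted p = 0.0293), and MMP1 and CCL2 on plastic, which rose by 1.17 ± 0.28 (adjusted p = 0.0243) and fell by 2.23 (SE 0.44, adjusted p = 0.0104). In all, 3 listed genes were called higher and 5 lower on gel, and 4 higher and 4 lower on plastic, between doses. That is 11.8% of the 68 tested on gel and 11.8% on plastic, near the 13.8% and 8.61% of all genes, so these counts are no result about the lists.

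Leukocytes are a rich source of IL1B and CXCL8 in tissue. Of 14 leukocyte markers, 7 had 0 counts in every library, S100A8, S100A9, CSF3R, FCGR3B, ITGAM, TYROBP and CD3E. The other 7 (PTPRC, CD68, CD14, LYZ, CSF1R, FCER1G and MS4A1) had counts in some libraries, reaching 1.88 CPM for FCER1G and 1.74 CPM for CD68, both on plastic. The summed level of the 14 was 0.137 to 0.544 CPM on gel at 100 nM against 0.465 to 2.69 CPM on plastic, and 0.330 to 1.94 CPM on gel at 250 nM against 0.393 to 3.31 CPM on plastic. Gel replicate 1, where the 8 genes were mostly highest, held 0.544 CPM of these markers at 100 nM, all PTPRC, and 0.330 CPM at 250 nM, all LYZ. Epithelial markers, 3 of 10 tested, summed to 43.2 to 115 CPM on gel and 56.7 to 116 CPM on plastic at 100 nM, mostly KRT18 and KRT19. Of 6 endothelial markers 1 was tested, TEK. Of the 10 fibroblast markers, 5 were called lower on gel at 100 nM, 1 at 250 nM and 6 over both doses, and 0 higher. Over all genes 0.219%, 0.00811% and 0.795% were called in these comparisons. In bulk RNA, more cells that express a gene and more RNA per cell cannot be told apart.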

How the data were processed

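RNA of IMR90 fibroblasts was sequenced in 12 libraries. Per the submitters' processing notes, reads were handled with Trimmomatic, STAR and RSEM on GRCh38, and DESeq2 1.36.0 was also used. Each deposited table gives expected counts and TPM per Ensembl gene, as the authors' RSEM estimated them. Titles give doses in nM and the labels' protocol in µM, and titles say hydrogel where the protocol says PDMS-coated plates; the titles were followed. Expected counts were rounded and tested in R 4.3.3 with edgeR 4.0.16: filterByExpr with 4 groups left 12329 genes, TMM scaling, 1 mean per group over all 12 libraries, a quasi-likelihood test with a robust estimate of the spread, and Benjamini-Hochberg adjustment over all genes. Biological variation between libraries, as a common coefficient, came to 0.299. The robust setting was not part of the written design; it was taken over from earlier work on these data after both settings had been run, and the fit without it is among the alternatives.

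CPM use TMM-scaled totals, and log2 CPM a prior count of 2. SE are derived from the fitted change and its p. Alternatives used DESeq2 1.42.0 and limma 3.58.1, and limma was also run on log2(TPM + 0.5) and log2(TPM + 0.1). Permutation tests used scipy 1.17.1. Correlations within a dose took genes with at least 10 counts in its 6 libraries. Symbols came from a gene name table, which held 61369 of the 61541 identifiers. Promoter windows came from RefSeq. Named genes were the 8 genes, listed genes called in any comparison, up to 2 of the most abundant uncalled genes of each list, and the 10 genes most like the 8, 1 of which is not reported here; others are named as chosen after their values were seen (ZC3H12A, IRAK3, PTGS2, CASP1, IL1RN, CXCR1, CXCR2). The genes and lists were chosen with earlier results of these data known. The edgeR fit was tested on simulated counts.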

Additional observations from a re-analysis of the deposited data

How the results depend on the processing

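Over 30 alternative settings, 880 log2 changes of the 5 tested genes kept their direction and side of the threshold in 819 cases, turned round in 39 and were called in 22. The number of the 8 genes called was 0 in each of the 6 comparisons as reported. With DESeq2, which gave CXCL5 no p, it was 1 at 100 nM and 1 over both doses, IL1B in each. Without a filter it was 1 over both doses (CXCL2) and 1 for dose on gel (IL6), and with a mean of at least 1 CPM it was 1 for dose on gel. Leaving out 1 library gave 0 to 1 over both doses (1 without gel replicate 2 at 100 nM, IL1B) and 0 to 1 for dose on gel (IL6, which enters only fits that hold gel replicate 1 at 100 nM, where it is high). Without a filter and without a robust estimate of the spread, an alternative added after the data were seen, the count was 7 for gel at the lower dose, 4 at the higher dose, 7 averaged, 2 for the interaction of gel and dose and 5 for dose on gel; the cause was not tested. No robust estimate alone, and the newer quasi-likelihood of edgeR 4, also added, gave 0 in all 6 comparisons. The replicate block also gave 0 throughout, with 33, 2, 107, 0, 1104 and 1688 genes called over all genes against 27, 1, 98, 0, 1061 and 1703. After removing group means, libraries of different groups correlated over 0.1 in 8 of 18 same-numbered pairs and 9 of 36 others, which cannot settle pairing.

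Calls over all genes often moved by more than 1.5 times. At 100 nM there were 163 with DESeq2, 46 with limma-voom, 447 with sample weights, 9 and 7 with limma on log2(TPM + 0.1) and log2(TPM + 0.5), 231 without a filter, 335 without a filter or robust spread, 10 with only the libraries compared, 114 without replicate 1 of both gel groups and 69 without both libraries that stand apart. At 250 nM these settings gave 97, 3, 161, 4, 3, 181, 231, 0, 19 and 9, in the same order. Thinned counts, the replicate block and upper-quartile scaling gave 2 there. Over both doses there were 385 with DESeq2, 801 with sample weights, 44 and 50 with limma on log2 TPM, 468 without a filter, 573 without a filter or robust spread, 358 without replicate 1 of both gel groups and 249 without both libraries that stand apart. For the difference between doses there were 63 without a filter and 129 without a filter or robust spread. For dose on gel there were 2925 with sample weights, 516 with only the libraries compared and 748 without replicate 1 of both gel groups. For dose on plastic there were 1667 with DESeq2, 594 and 675 with limma on log2 TPM, 3173 with sample weights, 1693 with only the libraries compared, 2547 without replicate 1 of both gel groups and 2143 without both libraries that stand apart. Leaving out 1 library gave 5 to 119 at 100 nM, 1 to 6 at 250 nM, 38 to 262 over both doses and 118 to 2228 for dose on plastic, the lowest without a plastic replicate 2 (at 250 nM without any of several libraries) and the highest without gel replicate 1 at 250 nM. For dose on gel it gave 679 (without gel replicate 1 at 100 nM) to 1861 (without plastic replicate 1 at 100 nM).

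Values that turned round were mostly those of the difference between doses, none of which was called. It was 0.01 (limma-voom), 0.64 (with sample weights) and 1.13 (without replicate 1 of both gel groups) for CXCL5, 0.42 for CXCL8 under the replicate block and 0.05 for CXCL2 with thinned counts. Leaving out 1 library it ran from -2.53 to 1.07 for CXCL2, -2.69 to 1.17 for CXCL3, -4.48 to 2.37 for CXCL5 and -3.27 to 2.30 for CXCL8. The gel change of CXCL5 was -0.71 at 100 nM and -0.15 over both doses without replicate 1 of both gel groups, and -0.71 to 5.48 at 100 nM leaving out 1 library. That of CXCL3 at 250 nM was -0.25 without replicate 1 of both gel groups, -0.28 without both libraries that stand apart and -0.27 to 3.58 leaving out 1 library. For dose on gel, CXCL3 was -0.03 and CXCL5 0.37 with sample weights, CXCL3 -1.47 without both libraries that stand apart and CXCL5 1.01 without replicate 1 of both gel groups. Leaving out 1 library, dose on gel ran -3.18 to 0.95 for IL1B, -1.47 to 2.28 for CXCL3, -4.60 to 2.26 for CXCL5 and -3.93 to 1.64 for CXCL8, and dose on plastic -2.26 to 1.38 for CXCL2, -0.47 to 1.74 for CXCL3 and -1.20 to 0.28 for CXCL5. The cause of each was not tested. Counts of IL1A, IL6 and CXCL1 near 0 limit any statement on them outside gel replicate 1.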
